A study of Rattus norvegicus with 9 samples.

Results

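Ephx1, which encodes microsomal epoxide hydrolase, and 9 genes for glutathione transferases were described in the left ventricle of rats, 10 genes of the 19294 with values. The genes were picked by symbol with earlier results of the same 9 libraries known, and the FPKM of all 3 groups counted as used in that choice, so their differences are given as a description and without p-values. The left ventricles came from WKY, a rat strain with normal blood pressure, from spontaneously hypertensive rats (SHR), which develop high blood pressure by inheritance, and from SHR that had received oxymatrine (SHR_OMT), an alkaloid found in Sophora plants. Each group had 3 samples, and the study set hypertensive rats with and without the compound beside the normotensive strain. The sources used here give no dose, length of treatment, age, sex or hour of collection. They also do not say that each sample was a separate animal, so p-values measure only the spread between these samples, which may be technical.

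Epoxide hydrolases and glutathione transferases are enzymes of detoxification. Microsomal epoxide hydrolase sits in the endoplasmic reticulum and adds water to reactive epoxides, turning them into diols. Glutathione transferases join the tripeptide glutathione to electrophiles, among them lipid aldehydes such as 4-hydroxynonenal that arise when membranes are oxidized. The cytosolic classes are named by Greek letters (alpha, mu, pi, theta, omega), kappa belongs to mitochondria and peroxisomes, and the microsomal transferases form a separate family of membrane proteins. Many of these genes are known targets of NRF2, the transcription factor of the oxidative stress response, which binds the antioxidant response element, and of the aryl hydrocarbon receptor, which binds the xenobiotic response element.

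The start regions of Ephx1 and Gstp1 are printed because they were the 2 members whose window held the core of the antioxidant response element. The windows run from 250 bases before to 50 bases after each annotated start and come from RefSeq on build GRCr8, whereas the submitters' notes name build Rnor_6.0 for the expression data. Capitals mark the core, and all 3 windows are on the minus strand and written 5′ to 3′ along the gene: Ephx1 at chr13:95275803-95276102 for window 1 and chr13:95263068-95263367 for window 2, and Gstp1 at chr1:210769656-210769955.
Ephx1 window 1: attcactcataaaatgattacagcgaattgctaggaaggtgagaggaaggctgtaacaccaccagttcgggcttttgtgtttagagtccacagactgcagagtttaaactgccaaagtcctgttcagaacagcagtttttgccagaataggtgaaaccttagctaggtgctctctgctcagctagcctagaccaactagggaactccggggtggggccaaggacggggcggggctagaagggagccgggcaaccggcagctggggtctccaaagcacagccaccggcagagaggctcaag
Ephx1 window 2: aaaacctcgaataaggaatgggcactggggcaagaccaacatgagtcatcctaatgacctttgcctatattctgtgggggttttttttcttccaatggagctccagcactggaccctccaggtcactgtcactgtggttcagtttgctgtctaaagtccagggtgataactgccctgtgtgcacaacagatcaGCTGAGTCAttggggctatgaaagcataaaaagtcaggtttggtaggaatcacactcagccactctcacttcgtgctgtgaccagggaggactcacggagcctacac
Gstp1: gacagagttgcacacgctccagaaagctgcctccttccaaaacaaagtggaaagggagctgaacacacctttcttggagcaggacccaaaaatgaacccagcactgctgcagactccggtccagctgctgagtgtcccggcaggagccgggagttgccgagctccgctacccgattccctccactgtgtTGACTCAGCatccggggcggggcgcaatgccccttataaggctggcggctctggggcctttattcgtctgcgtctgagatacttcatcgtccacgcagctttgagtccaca
The core was searched as TGACNNNGC on both strands, with N any base. Window 2 of Ephx1 held it on the other strand, 57 bases before the start, as GCTGAGTCA, and Gstp1 held it on the gene's own strand, 61 bases before the start, as TGACTCAGC. Read on 1 strand these are the same 9 letters, and they contain TGACTCA, the motif of the AP-1 factors, so the motifs overlap. Of 33469 windows of all genes 12.1% held the searched core, 0.415% held the exact 9 letters, and 4.63% held TGACTCA. Of the 10 windows of the 9 members in the table, 2 held the core and 3 held TGACTCA. The exact 9 letters and TGACTCA were looked up after the matches were seen, so nothing is read from their shares. The xenobiotic response element core, GCGTG on either strand, was in the windows of Gsta4, Gstp1 and Mgst3, 3 of 10 windows, against 29.7% of all windows. A match is a description of letters only, and the FPKM of Ephx1 is for the whole gene and does not tell its starts apart.

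By level, Mgst3 and Gstm2 stood above the other members in each of the 9 libraries. FPKM is scaled by gene length, so levels can be set beside each other. The order in WKY by mean FPKM was Mgst3 (384), Gstm2 (364), Gstp1 (166), Gsto1 (96.5), Gstk1 (55.3), Gsta4 (38.5), Gstm1 (31.9), Ephx1 (19.63), Mgst1 (19.6) and Gstt1 (3.94). In that order Mgst3 and Gstm2 overlapped between libraries, as did Ephx1 and Mgst1, and all other neighbours were apart. In SHR the order was the same down to Gstm1, with Mgst1 (25.8) then above Ephx1 (20.9). There Mgst3 and Gstm2 were apart, at 491 and 248, while Gsta4 and Gstm1 overlapped, as did Mgst1 and Ephx1. In SHR_OMT Ephx1 had 33.3 and Mgst1 32.8 FPKM and the libraries of the pair overlapped, as did Gsta4 and Gstm1. All 10 genes had a mean FPKM over the 9 libraries of at least 1, the level from which genes were tested, and the lowest single value was 2.89 for Gstt1 in SHR replicate 2.

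**Figure D1:**
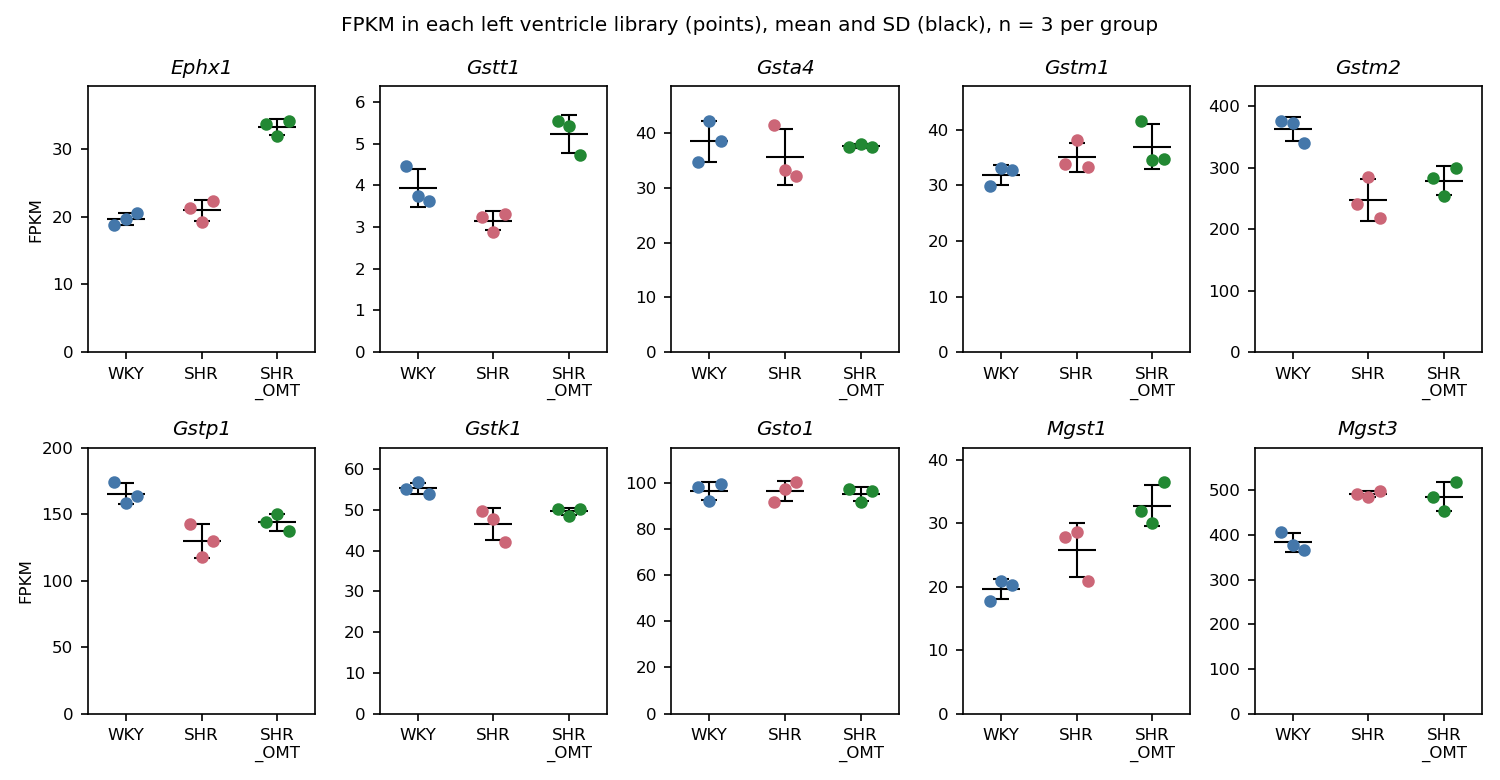
FPKM (vertical axes, from 0) of the 10 genes in the 9 libraries by group, with points for libraries in the order of replicates 1 to 3 and black bars for mean and SD (n = 3). The 3 SHR_OMT points of Ephx1 lie between 31.98 and 34.17, above the 6 other libraries, and Gstm2 is lowest in SHR, between 218.51 and 284.66.

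Ephx1 was higher in every treated SHR library than in any untreated one. Ephx1 had 21.21, 19.25 and 22.33 FPKM in SHR replicates 1 to 3 and 33.62, 31.98 and 34.17 in SHR_OMT, with 18.72, 19.6 and 20.57 in WKY. The 3 treated libraries were above all 6 others, while SHR and WKY overlapped. The mean was 33.3 ± 1.14 FPKM in SHR_OMT and 20.9 ± 1.56 in SHR (SD, n = 3), 58.9% higher. On the scale of log2(FPKM + 1), used for all differences here, that was 0.65 (standard error, SE, 0.064). The authors' deposited table gives a log2 ratio of 0.62 with a q-value of 2.95e-06 for the same contrast, from which nothing is read for a gene chosen on it.

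Gstt1, the theta class enzyme that acts on small halogenated molecules and epoxides, was the other gene with a difference of that size. It had 3.25, 2.89 and 3.31 FPKM in SHR, 5.55, 5.42 and 4.72 in SHR_OMT and 4.46, 3.74 and 3.62 in WKY. All 3 groups were apart, with SHR lowest and SHR_OMT highest. The treated mean of 5.23 ± 0.446 was 66.0% above the SHR mean of 3.15 ± 0.227, a log2 difference of 0.59 (SE 0.093). These are low levels, and the difference passed the threshold of limma, the linear model fitted across all genes, in only 1 of the 15 alternatives in which the gene was tested, a smaller pseudocount. The authors' deposited table gives a log2 ratio of 0.56 for treated over untreated SHR, with a q-value of 0.891.

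Mgst1, a microsomal transferase that also reduces lipid hydroperoxides, was the other member whose treated and untreated libraries did not overlap. It had 17.79, 20.82 and 20.19 FPKM in WKY, 27.83, 28.6 and 20.83 in SHR, and 31.83, 30.03 and 36.43 in SHR_OMT. SHR replicate 3 was as low as the highest WKY library, and the treated libraries were the highest. The log2 difference of SHR_OMT over SHR was 0.34 (SE 0.12), and 0.20 without SHR replicate 3.

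The other 7 members overlapped between treated and untreated SHR. Their log2 differences ran from −0.02 for Mgst3 to 0.18 (SE 0.098) for Gstm2. Gsto1, the omega class enzyme that reduces dehydroascorbate, spanned 91.56 to 100.22 FPKM in SHR and 91.53 to 97.33 in SHR_OMT. In all, 3 of the 10 genes had groups apart, all higher in SHR_OMT, where 17.2% of the 12451 tested genes were apart. By direction, 13.2% of tested genes were apart and higher and 3.99% apart and lower. By limma (adjusted p under 0.05) 2 of the 10, Ephx1 and Gstt1, passed as higher and 0 as lower, where 0.241% of tested genes passed, 0.153% as higher and 0.0883% as lower. Since these genes had been noticed in this contrast, nothing is read from either count. The median log2 difference was 0.12 over the 10 genes and 0.04 over all tested genes.

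In this contrast 0 genes on any of the 12 marker lists passed limma. The clock output factor Dbp, named because of its values, had 9.52, 15.82 and 9.01 FPKM in WKY, 17.05, 15.31 and 16.72 FPKM in SHR and 80.97, 60.84 and 89.45 in SHR_OMT. It was far higher in the treated libraries than in all others (log2 difference over SHR 2.15, limma adjusted p = 0.00298). Its part in the Ephx1 and Gstt1 values, and that of the hour of collection, was not tested. The summed FPKM of 6 Schwann cell markers lay between 10.5 and 14.3 in SHR, between 22.1 and 27.5 in SHR_OMT and between 12.4 and 27.99 in WKY. By limma 0 of the 6 were called in either comparison with SHR_OMT, and 1 was called lower in SHR against WKY. The part of Schwann cell RNA in these values was not tested. In bulk tissue fewer cells of a type and less RNA per cell cannot be told apart. Of 6 markers of hepatocytes, cells rich in these enzymes, 4 were under 1 FPKM in every library, with albumin (Alb) at most 0.61 and apolipoprotein A1 (Apoa1) at most 0.19, while Ttr had 22.62 to 32.42 and Tf 15.69 to 34.59. The hepatocyte sum was 53.4 to 55.8 in WKY, 52.4 to 59.3 in SHR and 47.7 to 59.1 in SHR_OMT. The heart muscle myosin gene Myh6 had 2192 to 3226 FPKM, and the sum of 8 heart muscle markers was 39161 to 44443. Of 6 atrial markers, Bmp10 was at most 0.62, Sln reached 19.99, Myl7 9.33 and Myl4 6.61, and Nppa, which diseased ventricle is known to express as well, had 967 to 4450. The atrial sum was 1267 to 2634 in WKY, 978 to 4463 in SHR and 978 to 1929 in SHR_OMT, and its part in the members' values was not tested.

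SHR against WKY asked how the hypertensive strain differs from the normotensive one. The largest difference between the strains among the 10 genes was in Gstm2, a mu class transferase whose human counterpart is known from muscle. Gstm2 had 376.81, 373.24 and 340.7 FPKM in WKY, 240.47, 284.66 and 218.51 in SHR and 283.18, 253.94 and 300.46 in SHR_OMT. Both SHR groups were below WKY and overlapped each other. The SHR mean of 248 ± 33.7 compared with 364 ± 19.9 in WKY, a log2 difference of −0.56 (SE 0.098). For treated SHR over WKY the difference was −0.38.

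Gstp1 and Gstk1 were also below WKY in SHR. Gstp1, the pi class enzyme that also binds the stress kinase JNK, had 174.25, 158.75 and 164.21 FPKM in WKY, 142.57, 117.67 and 129.81 in SHR and 144, 150.5 and 137.63 in SHR_OMT. The log2 differences from WKY were −0.35 (SE 0.072) in SHR and −0.20 in SHR_OMT. Gstk1, the kappa class enzyme, had 55.09, 56.79 and 53.98 FPKM in WKY, 49.8, 47.81 and 42.16 in SHR and 50.24, 48.52 and 50.11 in SHR_OMT. For both genes every library of either SHR group was below every WKY library. The Gstk1 difference for SHR, −0.25 (SE 0.062), was −0.16 after median-of-ratios scaling, which took the median of all genes from −0.08 to −0.0046. The authors' deposited log2 ratios for SHR over WKY are −0.24 for Gstp1 (q-value 0.0412) and −0.14 for Gstk1 (q-value 0.49). Nothing is read from q-values of genes chosen on these data.

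Mgst3 went the other way. This microsomal transferase, a relative of leukotriene C4 synthase with peroxidase activity, had 407.05, 377.84 and 365.66 FPKM in WKY, 491.33, 485.06 and 497.23 in SHR and 483.77, 453.63 and 517.8 in SHR_OMT. Every library of both SHR groups was above every WKY library, and the SHR groups overlapped. The log2 difference was 0.36 (SE 0.06) for SHR and 0.34 for SHR_OMT over WKY. Mgst1 differed from WKY by 0.37 (SE 0.12) in SHR and by 0.71 in SHR_OMT. The gap between SHR and WKY was 20.83 against 20.82 FPKM at its narrowest, so SHR replicate 3 set whether these groups touched, and without it the difference was 0.51.

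Gstm1, Gsta4, Gsto1 and Ephx1 differed little between the strains. Gstm1, another mu class enzyme, had 31.9 ± 1.77 FPKM in WKY, 35.1 ± 2.6 in SHR and 36.9 ± 4.06 in SHR_OMT, with WKY below both other groups without overlap. Gsta4, the alpha class enzyme best known for its action on 4-hydroxynonenal, had 38.5 ± 3.75, 35.6 ± 5.11 and 37.6 ± 0.337 FPKM in the same order and overlapped throughout. For Gsto1 the means were 96.5 ± 3.87, 96.3 ± 4.39 and 95.1 ± 3.15 FPKM. The log2 difference of Ephx1 was 0.09 (SE 0.064) for SHR over WKY, and 0.17 after median-of-ratios scaling, and for SHR_OMT over WKY it was 0.73.

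Over the 10 genes, 7 had SHR and WKY libraries apart, 3 higher and 4 lower in SHR, beside 48.1% of all tested genes (15.1% higher, 33% lower). By limma 2 passed as higher and 3 as lower, beside 33.9% of all tested genes (10.8% higher, 23.1% lower). For SHR_OMT against WKY 8 were apart, 5 higher and 3 lower, beside 42.7% of all tested genes (17% higher, 25.7% lower). By limma 4 passed as higher and 1 as lower there, beside 24.9% (10.2% higher, 14.6% lower). The 3 comparisons share libraries, so their counts are not separate evidence, and nothing is read from counts of genes chosen on these values. The call of Gstk1 for SHR against WKY was lost after median-of-ratios scaling, and that of Mgst1 in 9 of 16 alternatives, among them without any 1 WKY library, SHR replicate 1 or 2, or SHR_OMT replicate 1. For SHR_OMT against WKY, Gstm2 lost its call in 5 of 16 alternatives (no filter, and without WKY or SHR_OMT replicate 1 or 2) and Gstt1 in 4 of 15 (without WKY replicate 2 or 3, or SHR_OMT replicate 1 or 2). Calls were also gained there, for Gstp1 in 3 alternatives and Gstk1 in 2, in fits with only the groups compared, without SHR replicate 1 or 2 (Gstp1) and without SHR replicate 3 (Gstk1). Over the alternatives the number lower ran from 0 to 3. Endothelial markers were lower in both SHR groups, with summed FPKM of 1882 to 2103 in WKY, 1618 to 1694 in SHR and 1623 to 1721 in SHR_OMT, and 6 of 8 called lower in each comparison with WKY. The sum of 8 macrophage and monocyte markers was 115 to 139 in WKY, 156 to 177 in SHR and 88.4 to 186 in SHR_OMT, with 0 called. Of 8 fibroblast markers 1 was called lower in SHR and 3 in SHR_OMT against WKY, with sums of 2257 to 2948 in WKY, 2144 to 2373 in SHR and 1801 to 2373 in SHR_OMT. Of 8 heart muscle markers 2 were called higher in each comparison with WKY and 1 lower in SHR_OMT. In SHR against WKY 2 of 4 tested lymphocyte markers were called lower, and 1 each of the Schwann cell, mesothelium and atrial lists. For SHR_OMT against WKY 1 mesothelium marker was called lower. The part of these cell types in the members' values was not tested.

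**Figure D2:**
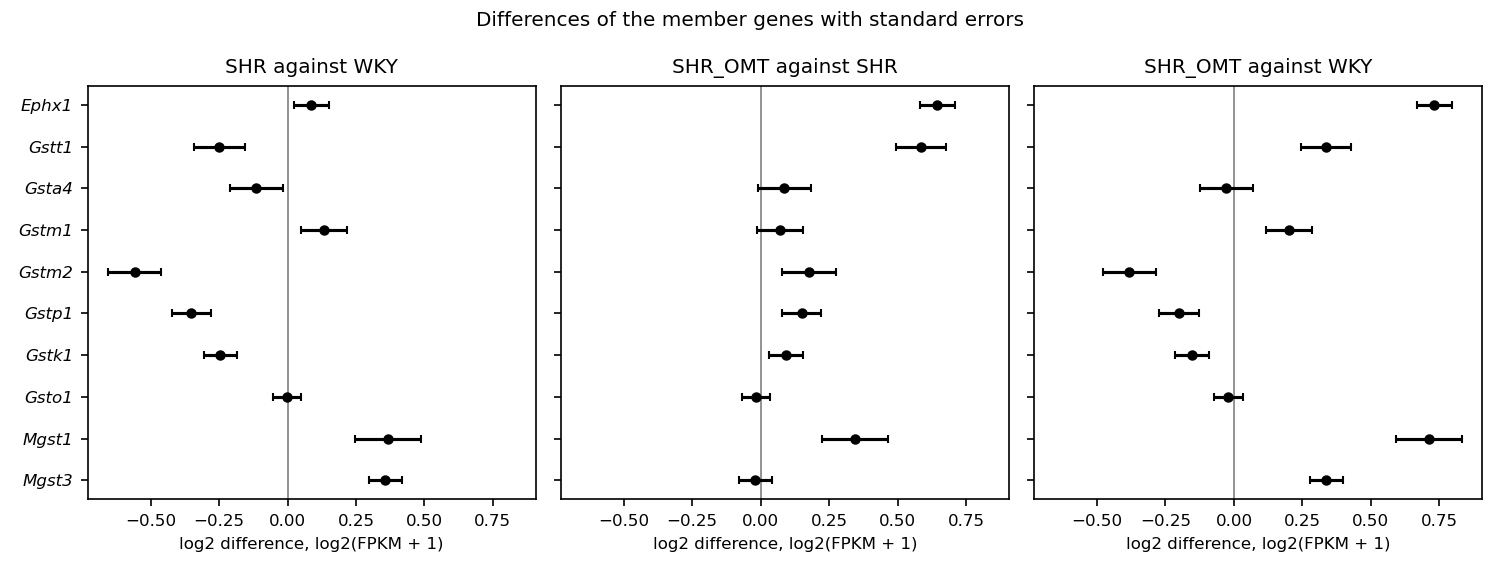
Log2 differences of log2(FPKM + 1) (horizontal axes) with standard errors for the 10 genes (rows) in the 3 comparisons, from limma over 9 libraries. Ephx1 is at 0.65 in SHR_OMT against SHR and at 0.09 in SHR against WKY, while Mgst3 is at −0.02 and 0.36.

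The make-up of the transcripts of the 9 member transferases differed between strains while their sum did not separate the groups. That sum is not the total of all transferases. It leaves out the 11 others tested, of which 5 were called lower and 1 higher in SHR against WKY. The summed FPKM of the 9 transferases was 1159 ± 39.7 in WKY, 1112 ± 30.2 in SHR and 1166 ± 55.5 in SHR_OMT, with overlap between all groups. Mgst3 and Gstm2 together made up 63.1% to 67.8% of that sum in every library. Within it Mgst3 took 33.1% ± 0.765 in WKY, 44.2% ± 1.75 in SHR and 41.6% ± 0.868 in SHR_OMT, and Gstm2 took 31.4% ± 0.885, 22.3% ± 2.51 and 23.9% ± 0.89. The ratio of Mgst3 to Gstm2 was 1.08, 1.01 and 1.07 in the WKY libraries, 2.04, 1.70 and 2.28 in SHR and 1.71, 1.79 and 1.72 in SHR_OMT. Every library of both SHR groups had a ratio above every WKY library. That was fixed by the values of the 2 genes, each already apart from WKY and in opposite directions, so nothing further is read from it. A ratio within a library does not change when the library is multiplied by a factor, as in median-of-ratios scaling, though quantile normalization can change it.

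**Figure D3:**
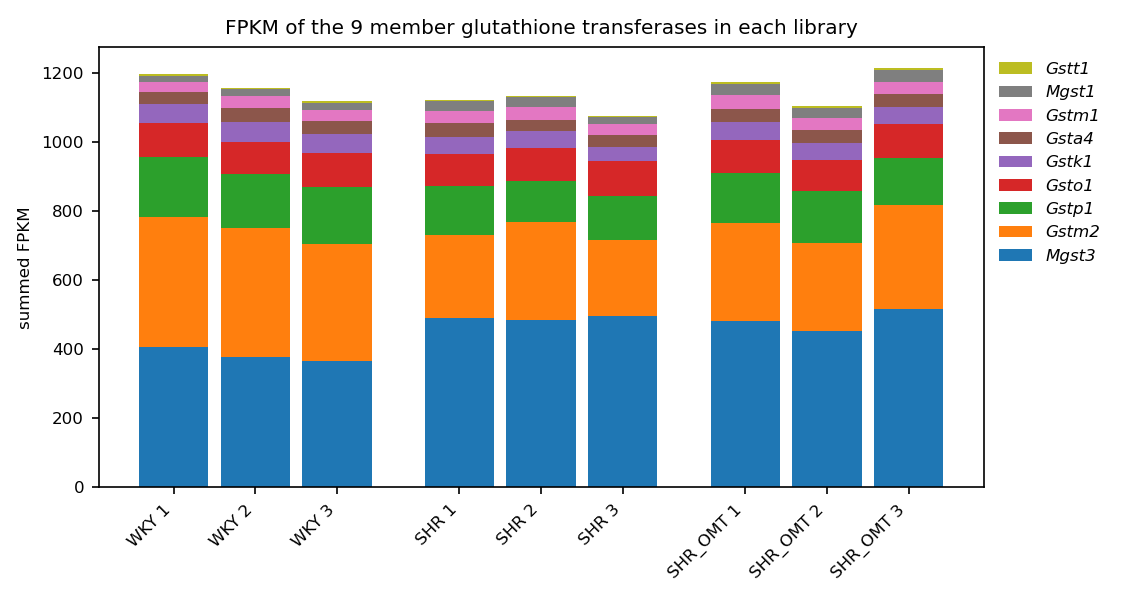
Summed FPKM of the 9 transferases (vertical axis, from 0) in each of the 9 libraries, stacked by gene. The totals lie between 1078 and 1216, and the Gstm2 share is larger in WKY than in both SHR groups.

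Several of these genes lie beside close relatives, between which estimated reads can be split. In the RefSeq table for assembly GRCr8 Gstm1 and Gstm2 lie in a cluster with Gstm3, Gstm4, Gstm6 and Gstm7, Gstt1 lies near Gstt2, Gstt3 and Gstt4, Gsta4 near Gsta2 and Gsta5, Gsto1 beside Gsto2 and Gstp1 beside Gstp3. Values of single copies are therefore uncertain. The sum over 8 mu class genes is less exposed to such splitting, and it was 484 ± 14.1 FPKM in WKY, 347 ± 38.5 in SHR and 381 ± 23.6 in SHR_OMT, with both SHR groups below WKY. Gstm2 made up 75.1% ± 1.97 of it in WKY and 71.2% ± 1.74 in SHR. The 3 theta class genes with values summed to 23.1 ± 1 FPKM in WKY, 18.2 ± 0.834 in SHR and 22.8 ± 1.31 in SHR_OMT, and SHR was below both other groups in every library.

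The genes whose profile was most like that of Ephx1 were found by the root mean square difference between centred log2(FPKM + 1) values over the 9 libraries, a description chosen with the values of Ephx1 in hand. The 5 nearest were Clec12b, a lectin receptor (0.11 log2 units), Snx10, a sorting nexin (0.11), Pik3ip1, an inhibitor of phosphoinositide 3-kinase (0.14), the tetraspanin Tspan4 (0.14) and Tbc1d10c (0.14). For comparison Ephx1 itself varied by 0.33 around its mean. Snx10 had 4.63 ± 0.0436 FPKM in WKY, 5.35 ± 0.629 in SHR and 7.53 ± 0.345 in SHR_OMT. For Gstt1, which varied by 0.26, the nearest were the cholesterol transporter Abcg1 (0.10), Tmem176a (0.11), Mthfd1l of mitochondrial folate metabolism (0.11), Tspan4 (0.11) and Smpdl3b (0.12). Ephx1 and Gstt1 differed from each other by 0.21, and among the other members Mgst1 was nearest to Ephx1, at 0.22. Tspan4 was on both lists, with 15.5 ± 1.59, 14.9 ± 0.759 and 22.4 ± 0.172 FPKM in WKY, SHR and SHR_OMT. Clec12b was low, with means of 0.81, 1.20 and 1.95 FPKM in the same order, as was Mthfd1l with 1.32, 1.03 and 1.71. At such levels the 1 added before taking logs shrinks differences, so their ratios can be less like those of Ephx1 and Gstt1.

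The rest of the pathway was followed in 7 lists that hold none of the 10 genes, 106 genes in all, of which 100 had values and 82 were tested with limma. In treated against untreated SHR 0 of the 82 passed an adjusted p of 0.05, where 0.241% of all genes did, and 15 of the 82 had an unadjusted p under 0.05, beside 1512 of all 12451 tested genes. The smallest adjusted p was 0.0734, for Cyp2e1, a cytochrome P450 that oxidizes small molecules. Cyp2e1 had 2.47, 2.98 and 3.17 FPKM in SHR, 7.33, 9 and 6.64 in SHR_OMT and 10.7, 12.32 and 6.3 in WKY. SHR was below both other groups, which overlapped. It passed for treated against untreated SHR in 2 of 16 alternatives, with only the groups compared (adjusted p = 0.0171) and without WKY replicate 3 (adjusted p = 0.00659), and the log2 difference was 1.16. The authors' deposited table gives it a q-value of 1.28e-06 for this contrast.

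In SHR against WKY 13 of the 82 genes rose and 18 fell, 37.8% in all beside 33.9% of all tested genes, and in SHR_OMT against WKY 15 rose and 14 fell, 35.4% beside 24.9%. After median-of-ratios scaling 17 rose and 13 fell for SHR and 16 and 12 for SHR_OMT, and after quantile normalization 16 and 13, and 16 and 12. The 2 scalings also moved the split over all tested genes. For SHR it was 1343 higher and 2872 lower, against 2033 and 1789 after median-of-ratios scaling and 1881 and 1812 after quantile normalization. In SHR_OMT against WKY 1274 and 1821 became 1651 and 1377, and 1557 and 1523, and in treated against untreated SHR 19 and 11 became 10 and 13, and 11 and 10.

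**Figure D4:**
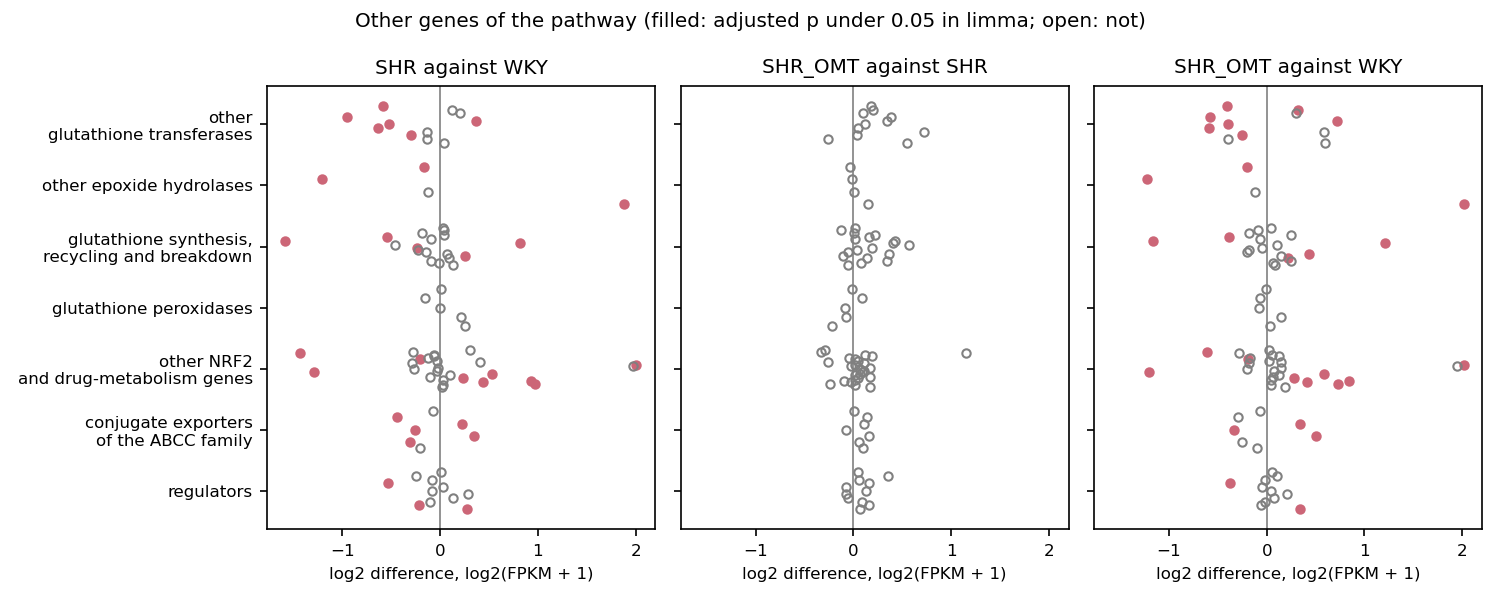
Log2 differences of log2(FPKM + 1) (horizontal axes) of 82 other genes of the pathway in 7 lists (rows), for the 3 comparisons; each point is a gene, filled where the limma adjusted p was under 0.05. No point is filled in SHR_OMT against SHR, and 31 and 29 are filled in the comparisons with WKY.

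Among 11 other transferases tested, 5 fell in SHR against WKY and 1 rose. Those that fell were Gstz1 of tyrosine breakdown (35.7 ± 6.02 to 17.8 ± 1.2 FPKM, log2 difference −0.96, adjusted p = 0.000397), Gstm7 (51.2 ± 4.77 to 32.6 ± 1.93, −0.63, adjusted p = 0.000258), Mgst2 (−0.58), Gstt2 (−0.52) and Gstm4 (−0.30). The authors' deposited q-values are 1.70e-09 for Gstz1, 5.92e-05 for Gstm7 and 0.0202 for Gstt2, but 0.229 for Mgst2 and 0.284 for Gstm4. Gstt3 rose by 0.37 (adjusted p = 0.0366), but 6 of 15 alternatives did not call it, among them those without WKY replicate 1 or 3 or without SHR replicate 2 or 3, with an adjusted p of up to 0.12. Its q-value in the authors' deposited table is 0.11. The same 5 genes fell in SHR_OMT against WKY and 2 rose there, Gstt3 by 0.71 (adjusted p = 0.0025) and Gstcd, named after its values were seen, by 0.32 (adjusted p = 0.0341). Mgst2 lost its call there in 7 of 16 alternatives (adjusted p of up to 0.118), both scalings and the fits without WKY replicate 1 or 3 or SHR_OMT replicate 1 or 2 among them. Gstm5, also named after its values were seen, spread widely within groups, from 0.47 to 7.77 FPKM in WKY and from 0.39 to 7.99 in SHR.

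All 4 other epoxide hydrolases were tested. Ephx2, the soluble enzyme that hydrolyses epoxides of fatty acids, had 9.33, 11.1 and 10.06 FPKM in WKY, 44.8, 39.08 and 36.3 in SHR and 45.99, 41.81 and 45.04 in SHR_OMT. Both SHR groups were far above WKY (log2 differences 1.88 and 2.02) and overlapped each other (0.15, adjusted p = 0.539), whereas Ephx1 had overlapped between the strains. Ephx4 fell from 3.44 ± 1.11 to 0.913 ± 0.471 FPKM in SHR (log2 difference −1.21, adjusted p = 0.0127) and also in SHR_OMT (−1.23, adjusted p = 0.0162), where the call was lost without WKY replicate 1 or 2 (adjusted p of up to 0.0607). Lta4h, of leukotriene B4 synthesis, fell by 0.17 in SHR and by 0.20 in SHR_OMT, but 9 and 5 of 16 alternatives did not call it, with an adjusted p as high as 0.222 and 0.0766. Both sets hold the fits without WKY replicate 1 or 3 and without SHR_OMT replicate 1, the first also both scalings (−0.08 and −0.09) and the fits without SHR replicate 1 or 2, and the second that without SHR_OMT replicate 3. Ephx3 had 1.31 ± 0.479, 1.1 ± 0.316 and 1.1 ± 0.206 FPKM and passed in no comparison.

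Of 18 genes of glutathione synthesis, recycling and breakdown, 2 rose and 3 fell in SHR against WKY. The enzymes that make glutathione passed in no comparison. Gclc, the catalytic subunit of its rate-limiting enzyme, had 7.95 ± 0.917 FPKM in WKY, 8.8 ± 0.538 in SHR and 8.45 ± 0.812 in SHR_OMT, and the modifier subunit Gclm had 16.5 ± 1.68, 16.3 ± 1.42 and 17.3 ± 1. Gss, glutathione synthetase, named after its values were seen, had 5.09, 5.8 and 6.31 FPKM in SHR and 7.47, 7.59 and 7.54 in SHR_OMT, groups that were apart (limma adjusted p = 0.200), with 6.76, 5.39 and 6.44 in WKY. Among the 5 that passed were 3 peptidases, with Dpep2 down (−1.59, adjusted p = 0.000449), Lap3 down (−0.55, adjusted p = 0.000187) and Dpep1, which splits the cysteinyl-glycine left from glutathione, up from 6.37 ± 1.25 to 12 ± 2.17 FPKM (0.81, adjusted p = 0.00338). Oplah, which opens the ring of 5-oxoproline, fell by 0.24 and Slc3a2, a subunit of amino acid transporters, rose by 0.26, with calls lost in 6 and 5 alternatives (adjusted p of up to 0.16 and 0.0911), among them without WKY replicate 1 or 2 for both, without SHR replicate 1 or 3 and with both scalings (−0.16 and −0.15) for Oplah, and without WKY replicate 3 or SHR replicate 2 for Slc3a2. In SHR_OMT against WKY 3 rose and 2 fell. Dpep1 rose by 1.21, and Dpep2 and Lap3 fell. Gsr, the glutathione reductase, rose by 0.22 (adjusted p = 0.0179, and 0.0618 at most, lost without WKY replicate 3 or SHR_OMT replicate 3). For Ggt5 the rise of 0.44 (adjusted p = 0.0429) was not called in 9 of 16 alternatives (adjusted p of up to 0.142), among them without WKY replicate 1 or 3, without any 1 SHR library, and without SHR_OMT replicate 1 or 2.

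Of 5 glutathione peroxidases tested 0 passed limma in any comparison, while 1, 1 and 0 had an unadjusted p under 0.05. Gpx1, the cytosolic enzyme, had 667 ± 89.5 FPKM in WKY, 790 ± 49.5 in SHR and 680 ± 41.7 in SHR_OMT. Its adjusted p for SHR against WKY was 0.0634 and fell below the threshold after median-of-ratios scaling and without WKY replicate 3. The secreted Gpx3 had 363 ± 55.1, 418 ± 30.6 and 400 ± 57 FPKM, and Gpx4, which reduces lipid peroxides in membranes, 357 ± 20.7, 357 ± 10.5 and 337 ± 10.5. The other 2 tested, Gpx7 and Gpx8, were far lower, between 9.24 and 14.61 and between 17.32 and 23.01 FPKM. The authors' deposited table differs from limma for SHR against WKY, with q-values of 0.00222 for Gpx1 and 0.0142 for Gpx3. Their log2 ratios there are 0.35 and 0.31. For Gpx4, Gpx7 and Gpx8 its q-values are 0.318, 0.937 and 0.778.

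Of 26 NRF2 and drug-metabolism genes tested 6 rose and 3 fell in SHR against WKY, and likewise 6 and 3 in SHR_OMT against WKY. Several well-known NRF2 targets were among those that rose in SHR. Srxn1, sulfiredoxin, rose from 5.61 ± 0.414 to 11.7 ± 1.4 FPKM (0.93, adjusted p = 0.000131), Hmox1, heme oxygenase, from 7.18 ± 1.33 to 14.9 ± 1.31 (0.97, adjusted p = 0.0025), Me1 by 0.53 and Txnrd1 by 0.44. Catalase (Cat), named after its values were seen, rose by 0.23. Cbr3, a carbonyl reductase, was listed at 0 in all 3 WKY libraries and had 2.85, 2.59 and 3.66 FPKM in SHR (adjusted p = 5.45e-06). Cbr1 of the same list, named after its values were seen, was also near 0 in WKY, with 0, 0.09 and 0 FPKM. It had 0.69, 5.64 and 4.85 in SHR (adjusted p = 0.075) and 6.27, 0 and 7.54 in SHR_OMT. What lies behind the values near 0 in WKY was not tested. Nqo1, another classical target, did not pass, with 15.7 ± 0.492, 16 ± 1.76 and 18.1 ± 1.78 FPKM in WKY, SHR and SHR_OMT. Aldh3a1 fell by 1.29 and Cyp2e1 by 1.43 in SHR, and Por, likewise named after its values were seen, fell by 0.21. The authors' deposited q-values for SHR against WKY are 1.77e-06 for Aldh3a1, 2.40e-08 for Cyp2e1 and 0.497 for Por. In SHR_OMT against WKY Srxn1, Me1, Txnrd1, Cat, Cbr3 and Hmox1 rose as well, Hmox1 with a call lost without WKY replicate 1 (adjusted p = 0.0518), while Aldh3a1, Por and the flavin monooxygenase Fmo1 (−0.62, adjusted p = 0.00426) fell.

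The ABCC list of conjugate exporters and the regulators complete the pathway. Of 7 tested genes on the ABCC list, which also holds Abcc9, 2 rose and 3 fell in SHR. Abcc5 fell by 0.26, Abcc9, known as a subunit of the potassium channel closed by ATP and not as an exporter, rose by 0.23 and Abcc4 by 0.35, and in SHR_OMT these 3 genes passed in the same directions. Abcc9 lost its call in SHR without SHR replicate 2 (adjusted p = 0.0511), Abcc4 without that library or WKY replicate 1 or 2 (adjusted p of up to 0.0661). Abcc10 and Abcc3 fell in SHR by 0.44 and 0.31, with calls lost in 5 and 6 alternatives (adjusted p of up to 0.0887 and 0.123), among them without WKY replicate 2 or SHR replicate 1 or 3 for both, without WKY replicate 1 and with quantile normalization for Abcc10, and without WKY replicate 3 and with both scalings (−0.24 and −0.20) for Abcc3. Of 11 regulators 1 rose and 2 fell in SHR, and 1 rose and 1 fell in SHR_OMT against WKY. Nfe2l2, the gene of NRF2, fell from 39.7 ± 0.626 to 33.9 ± 1.69 FPKM in SHR (−0.22, adjusted p = 0.0083, but 0.067 after median-of-ratios scaling) and had 37.9 ± 1.02 in SHR_OMT, which passed against neither group. Its relative Nfe2l1 rose in both SHR groups, by 0.28 and 0.34. For SHR against WKY the authors' deposited table gives a q-value of 0.41 for Nfe2l2 and 3.51e-14 for Nfe2l1. Ahr, the aryl hydrocarbon receptor, fell from 11.9 ± 1.4 to 7.9 ± 0.809 FPKM in SHR (−0.54, adjusted p = 0.00437) and by 0.37 in SHR_OMT, where 5 of 16 alternatives lost the call (adjusted p of up to 0.0976), among them without WKY or SHR_OMT replicate 1 or 3. Keap1, the repressor of NRF2, had 17.8 ± 0.65, 16.5 ± 0.299 and 17.6 ± 0.0781 FPKM and passed in no comparison.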

How the data were processed

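Left ventricle RNA of 9 rat samples in 3 groups of 3 had been extracted with Trizol and sequenced on the BGISEQ-500, per the labels. Bowtie2, RSEM 1.3.1, DESeq2 1.4.5 and Rnor_6.0 are named, without roles or settings, in the submitters' processing notes. Per the file headers, the values the authors deposited are FPKM, a unit scaled by transcript length and library total. The authors' deposited table also holds log2 ratios and q-values for 2 comparisons, quoted as theirs. Columns were assigned by library name. Of 22864 gene rows 3570 had no values, and 27 symbols turned into dates were restored by Gene ID. Depth is unknown: among 496 ratios of low values (193 genes), 27.4% were whole to a tolerance of 0.1 and even spacing would give 20%, so reads could not be recovered and no counting error is given.

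Genes with mean FPKM of at least 1 (12451) entered a two-sided limma 3.58.1 fit (R 4.3.3) to log2(FPKM + 1) across all 3 groups, with a variance trend. P-values were adjusted by Benjamini-Hochberg and called under 0.05, and the fit was tested on simulated data. Library FPKM sums were 587526 to 606633. The members and lists were chosen with earlier results of these data known. Pathway genes named were up to 6 called genes with the smallest p per list and comparison, lists of at most 4 whole, and 11 fixed genes; Ephx1 and Gstt1 each got 5 nearest genes. Alternatives were a pseudocount of 0.1, no filter, a mean FPKM of at least 5, 2 other scalings, only the groups compared, the replicate number as a block, and each sample left out. Figures used matplotlib 3.10.9.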

Additional observations from a re-analysis of the deposited data

How the results depend on the processing

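Of 477 recomputed differences of the 10 genes, 472 moved by less than the spread between replicates, and 5 moved further: with median-of-ratios scaling Ephx1 (0.17), Gstk1 (−0.16), Gsto1 (0.09) and Mgst3 (0.45) in SHR against WKY, and with a pseudocount of 0.1 Gstt1 (0.71) in SHR_OMT against SHR. Many of the 472 were fixed in advance. Changing the filter, fitting only the groups compared, the replicate block and leaving out a sample of the group not compared cannot move a difference. Only the pseudocount, the scalings and leaving out a compared sample could move one. Signs turned under some alternatives for differences near 0 that were not called: Gsto1 in all 3 comparisons, Gstm1 and Mgst3 in SHR_OMT against SHR, and Gsta4 in SHR_OMT against WKY. Gstt1 was below a mean FPKM of 5 and had no value there. For named genes of the pathway lists 1268 of 1374 kept direction and side of the threshold, 73 lost the call and 4 gained it.

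The 30 genes called for SHR_OMT against SHR became 12 with no filter on low values, 19 with only the groups compared and 14 with the replicate block, and 6 to 33 when single samples were left out (6 without SHR_OMT replicate 1, 7 without SHR replicate 2). For SHR_OMT against WKY 3095 became 1893 to 3043 with single samples left out, lowest without WKY replicate 1 and 2024 without SHR_OMT replicate 1. The pathway count of 0 for SHR_OMT against SHR was 1 with only the groups compared and 0 to 1 with single samples left out, the 1 being Cyp2e1 without WKY replicate 3. No pairing by replicate number was visible, as same-numbered deviations correlated at −0.109 to 0.0276. This cannot settle whether the samples were paired by design, which the labels do not say. With the block 3550 and 2473 genes were called for SHR and SHR_OMT against WKY, beside 4215 and 3095. The block also ended the calls of Lta4h in both comparisons with WKY, of Mgst1 in SHR against WKY and of Gstt1 in SHR_OMT against SHR.

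Among the named pathway genes, turns of sign were all in differences that were not called, and the cause was not tested. In SHR against WKY, leaving out single samples gave Ephx3 −0.27 to 0.026, Gclm −0.080 to 0.058, Gpx4 −0.045 to 0.036 and Nqo1 −0.053 to 0.097. Median-of-ratios scaling and quantile normalization gave Gclm 0.075 and 0.068, and the latter gave Gpx4 −0.0005. In SHR_OMT against SHR, single samples left out gave Ephx3 −0.10 to 0.11, Ephx4 −0.25 to 0.27 and Gpx3 −0.16 to 0.046, and those scalings gave Ephx3 −0.021 and −0.057. In SHR_OMT against WKY, single samples left out gave Ephx3 −0.27 to 0.030, Gclc −0.0065 to 0.14, Gclm −0.0005 to 0.14, Gpx1 −0.029 to 0.14 and Keap1 −0.045 to 0.0002, and those scalings gave Keap1 0.028 and 0.018. Precision rests on 3 samples a group, since read depth is unknown.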
